A study of Mus musculus with 4 samples.

Results

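A set of 9 genes that mark enteric neurons or the neural crest, *Ret*, *Ednrb*, *Sox10*, *Hand2*, *Elavl3*, *Elavl4*, *Uchl1*, *Nos1* and *Vip*, were followed on mouse expression arrays of the spinal cord and the duodenum. They were chosen by name and not by their signal. They account for 9 of the 20144 genes that could be given a symbol and for 11 of the 39429 probes, since *Elavl4* and *Ednrb* each had 2 probes. The study asked what loss of IP6K2, an inositol hexakisphosphate kinase that makes an inositol pyrophosphate, does to gene expression in these organs. The 4 groups were WT spinal cord, IP6K2-KO spinal cord, WT duodenum and IP6K2-KO duodenum, with 1 array in each. The organs of a genotype were not matched to an animal here. Below, the WT mouse and the mouse labelled KO therefore stand for the WT and the KO-labelled arrays. The donors were male littermates aged 20 weeks that had been kept on CE-2 chow, then received iVid-neo, a purified diet, over 1 week and finally went without food for 48 h, so the WT groups carry the diet change and the fast as well. The knockout allele lacks exon 6, which encodes the kinase domain, in the whole animal. RNA came from organs and not from isolated neurons, and the labels do not say which layers of the gut wall were taken.

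With 1 array per group, no value has a replicate check, no test was made, and precision is limited by the number of arrays. Values are the background-subtracted, detrended processed signals of the scanner software, in arbitrary units, and their log2 after the 75th percentile of the array was subtracted. That percentile was 905, 971, 68.0 and 323 on the WT spinal cord, KO spinal cord, WT duodenum and KO duodenum arrays, and all values below are given in that order. Because it differed this much, a raw signal cannot be set against that on another array without the scaling. Between 51.6% and 77.4% of the probes on an array were well above background, which is the scanner software's own call of detection. Each ± is a technical SD from probes spotted 10 times on an array and covers spots, not mice. The labelled organs carried their own markers, with 10 of 10 intestinal epithelial genes well above background on both duodenum arrays against 3 on each spinal cord array, and 10 of 10 oligodendrocyte genes on both spinal cord arrays. The *Ip6k2* probe read 452, 1320, 139 and 572. Its scaled log2 value was higher by 1.45 on the spinal cord array labelled KO and lower by 0.21 ± 0.082 on the duodenum array labelled KO. Genotypes are therefore given as labelled throughout. The sources used here do not say whether the probe lies in the deleted exon.

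The enteric nervous system is a network of neurons and glia in the gut wall that controls motility and secretion, and it is built by neural crest cells that migrate into the gut before birth. The receptor tyrosine kinase RET, which answers to GDNF family ligands through GFRA coreceptors, and the endothelin receptor EDNRB guide those cells, while the transcription factors SOX10 and HAND2 act in crest progenitors and in the differentiation of enteric neurons. Mature enteric neurons hold the neuronal RNA-binding proteins HuC (*Elavl3*) and HuD (*Elavl4*) and the ubiquitin hydrolase PGP9.5 (*Uchl1*), and inhibitory motor neurons of the gut use nitric oxide, made by the synthase encoded by *Nos1*, and the peptide VIP. Most of these genes are also used in the neurons or glia of the spinal cord, whereas *Hand2* is known mainly from the sympathetic and enteric lineages, the heart and the limb.

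The promoter windows of the pair of genes that stood higher in the duodenum, *Vip* and *Hand2*, and of *Elavl3*, which stood furthest the other way, are printed to show the start-site sequence of genes at the opposite ends of the tissue comparison. Each holds the 250 bases before the transcription start, 5′ to 3′ on the gene's strand, from RefSeq on build GRCm38.p6. *Vip* lies at chr10:5638968-5639217 on the plus strand, *Hand2* at chr8:57320733-57320982 on the plus strand and *Elavl3* at chr9:22052024-22052273 on the minus strand. Capitals mark TGACG, the cyclic AMP response element half-site, in *Vip* and CANNTG, the E-box core, in *Hand2* and *Elavl3*.
Vip: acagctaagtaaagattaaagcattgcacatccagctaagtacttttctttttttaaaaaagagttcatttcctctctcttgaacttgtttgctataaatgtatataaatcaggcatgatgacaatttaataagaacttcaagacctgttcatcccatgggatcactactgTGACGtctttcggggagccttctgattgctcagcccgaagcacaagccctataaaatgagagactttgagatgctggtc
Hand2: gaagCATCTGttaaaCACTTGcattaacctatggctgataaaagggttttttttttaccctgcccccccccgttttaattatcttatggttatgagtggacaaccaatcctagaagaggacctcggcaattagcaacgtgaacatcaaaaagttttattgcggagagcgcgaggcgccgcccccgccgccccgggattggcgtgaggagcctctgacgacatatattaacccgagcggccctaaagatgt
Elavl3: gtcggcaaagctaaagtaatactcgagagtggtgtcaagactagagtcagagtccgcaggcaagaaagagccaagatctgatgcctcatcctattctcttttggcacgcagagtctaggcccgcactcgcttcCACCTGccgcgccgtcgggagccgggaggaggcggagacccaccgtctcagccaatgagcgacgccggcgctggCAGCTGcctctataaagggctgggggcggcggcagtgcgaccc
Between the *Vip* half-site and the transcription start lie 74 bases, and the window has no E-box core. From the end of each E-box core to the start there are 240 and 229 bases in *Hand2* and 111 and 37 bases in *Elavl3*. The TATAAA motif, not capitalized, ends 24, 141 and 151 bases from the start in *Vip* and 27 bases from it in *Elavl3*.

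RefSeq windows were found for 7 of the 9 genes, *Nos1*, *Vip*, *Hand2*, *Elavl3*, *Elavl4*, *Uchl1* and *Ednrb*, 10 windows in all because *Elavl4* has several starts. On either strand, CANNTG was in 6 of the 10 windows, from 4 of the 7 genes, against 66.2% of the 32851 mouse windows of that length. TGACG was in 7 of the 10 windows, from 5 genes, against 17.8% of windows. TATAAA was in 2 of the 10, from 2 genes, against 12.4%. ACAAAG, a core bound by SOX factors, was in none, against 16.5%. Some windows of *Elavl4* overlap, so the same match can count more than once. The motif matches searched for did not overlap one another at the marked positions. They describe letters in these windows and were not related to the array values.

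On the WT arrays, 8 of the 9 genes were well above background in the spinal cord and 6 in the duodenum. On the arrays labelled KO the numbers were 8 and 8. *Hand2* was the gene missing in both spinal cords. *Nos1* was missing in both duodena, while *Elavl3* and *Ednrb* were missing in the WT duodenum alone, the array with the dimmest signals. In bulk RNA, fewer cells of a type and less RNA per cell cannot be told apart.

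**Figure D1:**
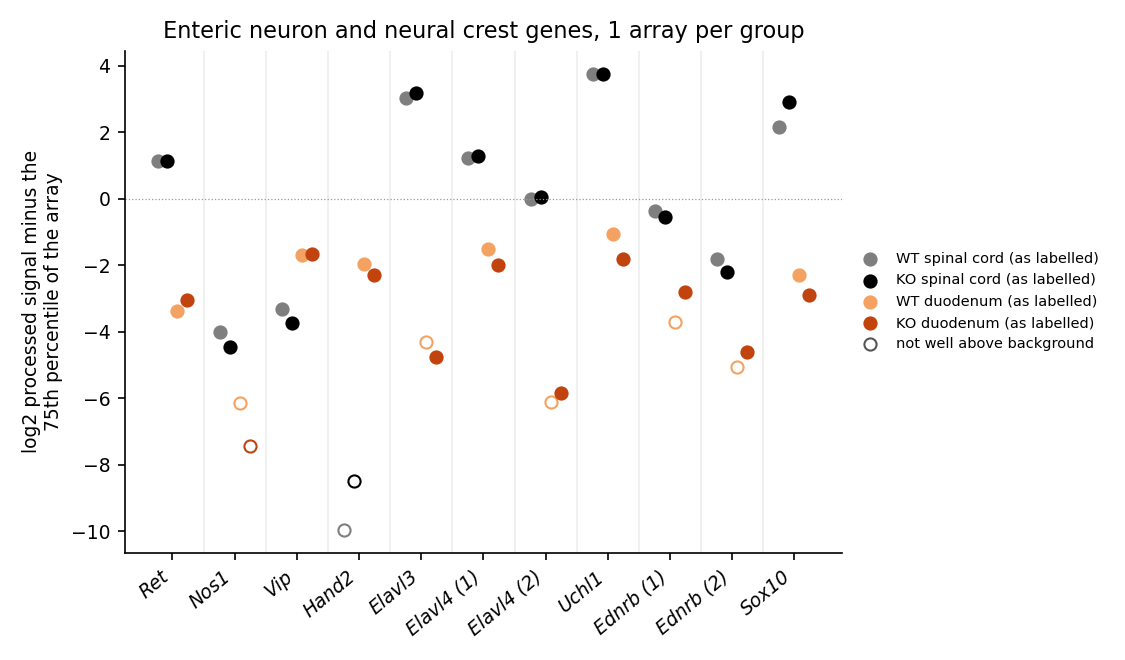
Scaled log2 signal of each of the 11 probes on the 4 arrays, 1 point per array, with the vertical axis in log2 units relative to the 75th percentile of the array and open circles for probes not well above background. In the spinal cord *Uchl1* reads 3.76 and 3.75 and in the duodenum −1.07 and −1.80, whereas *Hand2* is open in the spinal cord and filled in the duodenum at −1.97 and −2.30.

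*Ret* was bright in the spinal cord and dim in the duodenum. Its signals were 1996, 2152, 6.53 and 39.3, and the scaled log2 values were 1.14, 1.15, −3.38 and −3.04. Between the genotypes, the duodenum labelled KO was higher by 0.34 ± 0.26 and the spinal cord by 0.0067 ± 0.057. The duodenum difference was little larger than the spread between spots, at a WT signal near the detection limit, and under normexp background correction, another way of subtracting the local background, it was −0.96, so it has no settled direction. The log2 difference of the duodenum from the spinal cord was −4.52 in the WT mouse, 23.0-fold lower, and −4.19 on the KO-labelled arrays, 18.2-fold lower.

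*Ednrb* was measured by 2 probes, and both were brighter in the spinal cord. The first probe read 696, 659, 5.18 and 45.8 and the second 259, 212, 2.05 and 13.3. Neither WT duodenum reading was well above background. The spinal cord labelled KO was lower by 0.18 ± 0.063 on the first probe and by 0.39 ± 0.070 on the second, so the probes gave the same sign and unequal sizes. In the duodenum the first probe was at least 1.86-fold higher on the KO-labelled array, a log2 bound of 0.90 taken against the probe's own WT reading, which was above the lowest detected value of that array. The second probe gave no fold, because its reading on the KO-labelled array lay under that lowest value. Neither form of normexp gave *Ednrb* a bound between the duodenum arrays. The 6 other ways of processing that did gave log2 bounds from 0.68 to 3.90. With the main scaling, the first probe was at least 10.1-fold lower in the WT duodenum than in the WT spinal cord. On the KO-labelled arrays it was 4.78-fold lower. Over the 8 other ways of processing, the log2 bound for *Ednrb* in the WT mouse ran from −8.373 to −0.745. The log2 difference on the KO-labelled arrays ran from −4.9 to −1.389.

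*Sox10*, which in the adult marks oligodendrocytes, Schwann cells, melanocytes and enteric glia, gave the largest genotype difference of the members in the spinal cord. Its signals were 4041, 7318, 13.9 and 43.1, and the scaled log2 values were 2.16, 2.91, −2.29 and −2.91. The spinal cord labelled KO was higher by 0.76 ± 0.059, above 96.9% of the genes detected on both spinal cord arrays. The duodenum labelled KO was lower by 0.62 ± 0.17, with 27.0% of genes further down. Scaled values thus lay on opposite sides of 0 in the organs, and the duodenum difference minus the spinal cord difference was −1.37. That contrast rests on 4 arrays and was not tested.

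Markers of other cell types moved beside *Sox10* in the spinal cord. Of 10 Schwann cell genes, all well above background on both arrays, 7 were at least 2-fold higher on the array labelled KO, their median difference was 1.66, and their scaled linear signals summed to 76.2 on that array against 49.1 on the WT array. *Prx*, which encodes periaxin of myelinating Schwann cells, was higher by 5.23. Of the 10 skeletal muscle genes 9 were at least 2-fold higher, with summed signals of 102 against 28.7, and of 7 blood genes 5 were, with sums of 351 against 228. Of all genes well above background on at least 1 spinal cord array, 2.28% were at least 2-fold higher. The 10 oligodendrocyte genes had a median difference of 0.17, with 9 of 10 above 0, and summed to 127 against 114. In the duodenum the median differences were 0.86 over 4 Schwann cell genes, 0.43 over 4 melanocyte genes and 0.23 over 5 oligodendrocyte genes. The median there was −0.54 over 6 enteric glial genes. The part of these cell types in the *Sox10* differences was not tested.

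*Hand2* was detected only in the gut. Its signals were 0.909, 2.68, 17.3 and 65.7, and both spinal cord readings were not well above background. With the main scaling, the duodenum was therefore at least 51.6-fold higher than the spinal cord in the WT mouse. On the KO-labelled arrays it was at least 46.0-fold higher. These sizes depend on the processing. Over the 8 other ways, the log2 bound ran from 0.654 to 6.946 in the WT mouse. On the KO-labelled arrays it ran from 2.51 to 6.207. The scaled log2 values in the duodenum were −1.97 and −2.30, a difference of −0.32 ± 0.16 for the KO-labelled array. No genotype difference can be given in the spinal cord.

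The neuronal RNA-binding protein genes had high signals in the spinal cord. *Elavl3* read 7403, 8796, 3.40 and 11.9, and the WT duodenum reading was not well above background. The spinal cord labelled KO was higher by 0.15 ± 0.058, and in the duodenum the detection limit of the WT array allowed no fold. With the main scaling, *Elavl3* was at least 129.5-fold lower in the WT duodenum than in the WT spinal cord. On the KO-labelled arrays, where it was detected in both organs, the fold was 245. Over the 8 other ways of processing, the log2 bound in the WT mouse ran from −12.053 to −3.792. The log2 difference on the KO-labelled arrays ran from −10.548 to −5.77.

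*Elavl4*, by the names in the scanner files, was read by 2 probes that differed in the duodenum. The first read 2131, 2373, 23.8 and 81.2. The second read 892, 1003, 0.972 and 5.57, with the WT duodenum not well above background. In the duodenum the first probe was lower on the KO-labelled array by 0.48 ± 0.13, with 32.9% of detected genes further down, and the second gave no fold. Between the spinal cords the differences were 0.053 ± 0.057 and 0.067 ± 0.060, about the spread between spots. The deposited table of normalized values gives the *Elavl4* name to other readings, so its values were not used for this gene, and the sources used here do not say which naming is right.

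*Uchl1*, a bright probe in the spinal cord, had the largest measured genotype difference of the members in the duodenum. It read 12279, 13081, 32.4 and 92.7, or 3.76, 3.75, −1.07 and −1.80 after scaling. The spinal cords differed by −0.010 ± 0.057. The duodenum labelled KO was lower by 0.73 ± 0.12, or 1.66-fold, with 22.7% of detected genes further down. Its distance from the spinal cord was 28.5-fold in the WT mouse and 46.9-fold on the KO-labelled arrays.

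*Vip*, one of the transmitter genes, was detected on all 4 arrays. It read 90.9, 72.7, 20.8 and 103, with scaled log2 values of −3.32, −3.74, −1.71 and −1.65. In the duodenum the genotypes differed by 0.055 ± 0.13, less than the spread between spots, and under normexp by −0.51. The spinal cord labelled KO was lower by 0.42 ± 0.099, with 5.26% of detected genes further down. *Vip* was the only member well above background on all 4 arrays whose scaled value was higher in the duodenum, by 3.05-fold in the WT mouse and 4.26-fold on the KO-labelled arrays. This direction depends on the scaling. With quantile normalization within each organ the log2 differences were −1.08 and −0.55, and with scaling on spiked-in control probes the WT difference was −3.43. Relative to the median gene, *Vip* was higher in the duodenum by 0.98 and 1.79, and over the 8 other ways of processing by 0.27 to 1.43 and by 1.16 to 2.08.

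*Nos1* was detected in the spinal cord only. It read 56.6 and 44.1 there and 0.968 and 1.86 in the duodenum. The spinal cord labelled KO was lower by 0.46 ± 0.12, with 4.39% of detected genes further down. No genotype difference can be given in the duodenum, where a difference in *Nos1* was not detectable at this signal. On the KO-labelled arrays the duodenum was at least 3.39-fold lower than the spinal cord, and the WT arrays allowed no fold. Over the 6 other ways of processing that gave a value, the log2 bound on the KO-labelled arrays ran from −4.15 to −1.31.

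Under the 75th percentile scaling, 0 of the 6 members measured in the duodenum and 0 of the 8 in the spinal cord were 2-fold apart between the genotypes. *Ednrb* had only a bound of at least 1.86-fold in the duodenum, so it may lie past 2-fold. *Nos1* and *Elavl3* in the duodenum and *Hand2* in the spinal cord gave no value. With bounds counted, spiked-in scaling put 8 of the 9 members past that fold in the duodenum, and normexp put 1 past it there and 3 in the spinal cord. The background was not empty. Of the 21436 genes well above background on at least 1 duodenum array, 19.1% were at least 2-fold apart, 7.2% higher and 11.9% lower on the KO-labelled array. The 6 members detected on both duodenum arrays had a median difference of −0.40, with 4 below 0, against a median of −0.11 over 16816 genes. The middle 90% of those genes ran from −1.74 to 1.16 and held all 6. The members' place below the median gene depended on the processing. With averaged probes the medians were −0.21 for the members and −0.15 for all genes. Without a filter on dim probes they were −0.43 over 9 members and −0.55 over 32584 genes, so the members then lay above the median gene. For the spinal cord the share was 3.15% of 25223 genes, 2.28% higher and 0.864% lower. The 8 members detected there had a median of −0.0018, with 4 below and 4 above 0, against −0.038 over 24166 genes, whose middle 90% ran from −0.44 to 0.54. *Sox10* lay above that range and *Nos1* below it.

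**Figure D2:**
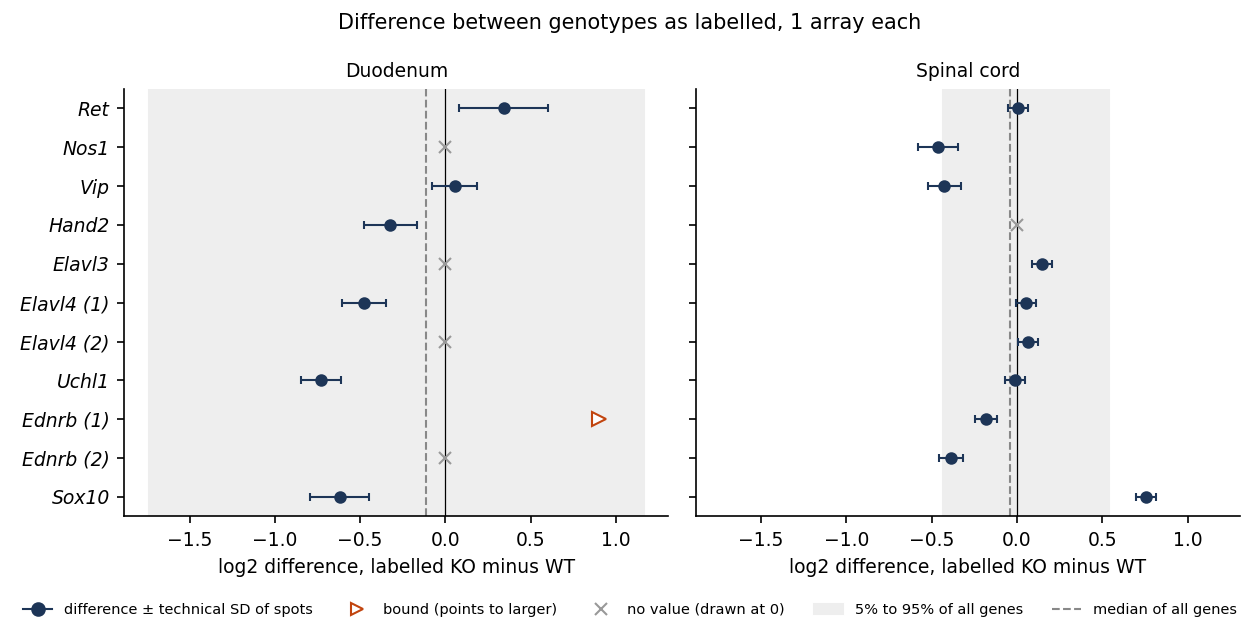
Log2 difference of each probe, array labelled KO minus WT, in the duodenum (left) and the spinal cord (right), with bars for the technical SD of spots, open triangles for bounds, crosses at 0 for probes with no value, and a grey band from the 5th to the 95th percentile of all genes detected on both arrays. In the duodenum every measured point lies inside the band of −1.74 to 1.16, and in the spinal cord *Sox10* at 0.76 lies above the band. With scaling on spiked-in control probes all measured duodenum differences would be positive.

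The duodenum signs hold only relative to the rest of the array. Scaling on spiked-in control probes put the median gene of the duodenum 2.89 higher on the KO-labelled array, and each measured member was then positive. Relative to the median gene, *Uchl1* was lower by between 0.58 and 0.73 over the 8 other ways of processing, *Sox10* by between 0.47 and 0.92, and *Hand2* by between 0.17 and 0.69. *Elavl4* ranged from −0.62 to 0.046 over 7 ways, the upper value with its 2 probes averaged. *Ret* ranged from −0.78 to 0.49 and *Vip* from −0.33 to 0.20. *Ednrb*, as a bound, was higher by 0.83 to 1.01 over the 6 ways that gave it a value, and neither form of normexp did. In the spinal cord, *Sox10* was higher by 0.77 to 1.45 relative to the median gene, *Nos1* was lower by 0.20 to 1.35 and *Vip* by 0.23 to 1.06.

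**Figure D3:**
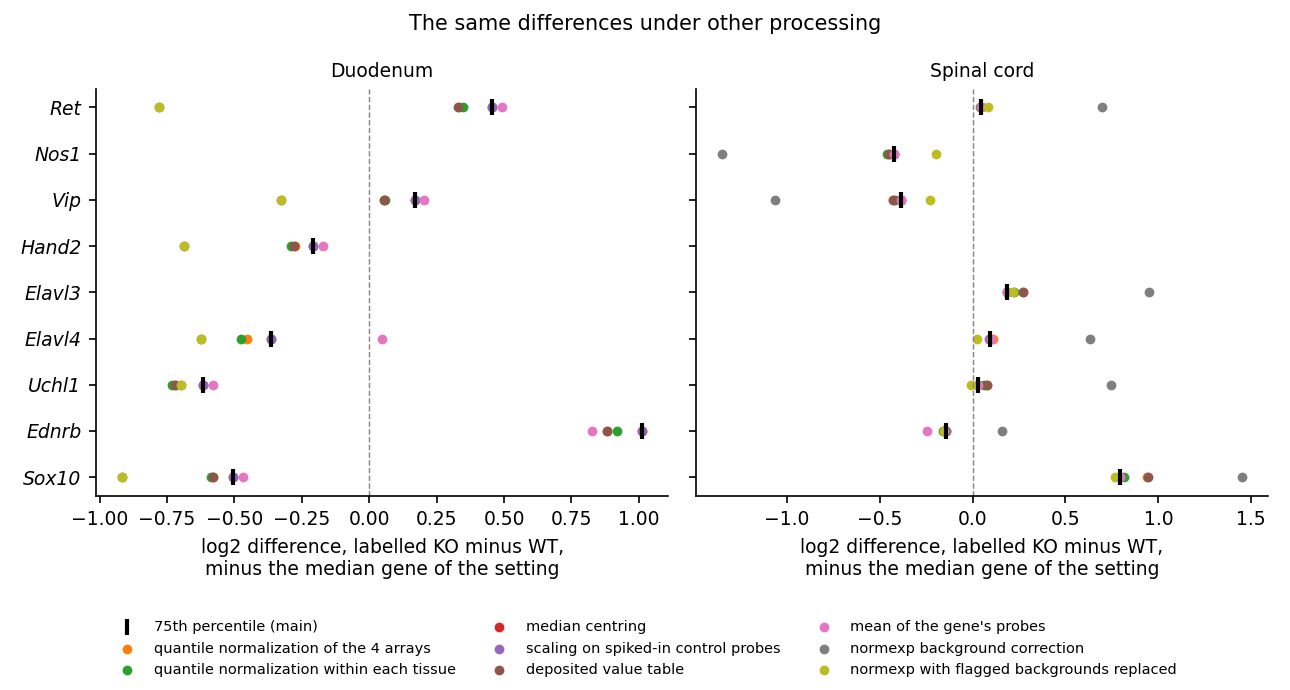
Difference of each gene between the array labelled KO and WT in log2 units, with the median gene of the same way of processing subtracted, in the duodenum (left) and the spinal cord (right), 1 point per way of processing and a black tick for the main scaling. *Uchl1*, *Sox10* and *Hand2* stay left of 0 in the duodenum, *Ret* and *Vip* fall on both sides of it, and *Sox10* stays right of 0 in the spinal cord.

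Between organs the members were spread far more widely. On the WT arrays 2 of the 9 were at least 2-fold higher in the duodenum and 6 at least 2-fold lower, 8 in all, when 30.2% and 23.1% of 25223 genes were, 53.3% in all. On the KO-labelled arrays 2 were higher and 7 lower, all 9, when 30.3% and 25.4% of 25728 genes were, 55.7% in all. Of the 5 members measured in both WT organs the median difference was −4.45, against 0.63 for the median of 16263 genes, and of the 7 measured in both KO-labelled organs it was −4.19, against 0.30 for 20427 genes. *Ret*, *Elavl4*, *Uchl1*, *Ednrb*, *Elavl3* and *Sox10* were lower in the duodenum and *Hand2* was higher in all ways of processing that gave them a value. The order of genes within an organ is not given, because signals of different probes are not comparable.

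**Figure D4:**
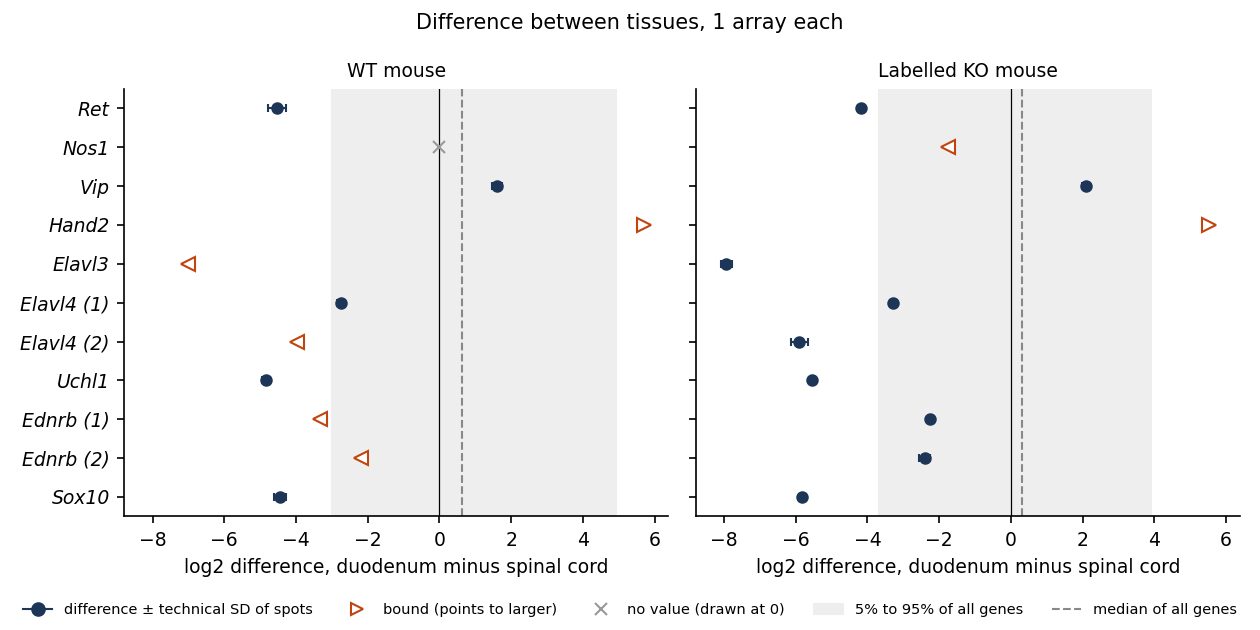
Log2 difference of each probe, duodenum minus spinal cord, in the WT mouse (left) and the mouse labelled KO (right), with the same symbols and a grey band from the 5th to the 95th percentile of all genes detected on both arrays. *Hand2*, as a bound, and *Vip* lie right of 0 and the others with a value lie left of it, down to −7.93 for *Elavl3* on the right; *Vip* turns to −1.08 and −0.55 with quantile normalization within each organ and to −3.43 in the WT mouse with scaling on spiked-in control probes.

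The 6 lists of pathway partners had 47 genes on the array. None of the 42 detected on both spinal cord arrays was 2-fold apart between the genotypes, and their median difference was −0.032. In the duodenum 29 were detected on both arrays, with a median of 0.033. On the KO-labelled array 1 was at least 2-fold higher and 6 at least 2-fold lower. Of all genes well above background on at least 1 duodenum array, 7.2% and 11.9% were. Among the RET ligands and coreceptors, *Nrtn*, the ligand neurturin, read 1619 and 2012 in the WT and KO-labelled duodenum and was lower by 1.93 after scaling. *Gfra4*, the persephin coreceptor, read 4104 and 2788 and was lower by 2.80. *Gdnf*, the main RET ligand of the gut, read 11.3 and 56.3 and differed by 0.065, while *Gfra1*, its coreceptor, was not well above background in either duodenum.

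Of the endothelin genes, the differences in the duodenum were −1.07 for *Edn2*, an endothelin ligand, and −1.28 for *Ece1*, the enzyme that activates endothelins. *Edn3*, the ligand that pairs with EDNRB in the neural crest, was not well above background in either duodenum. Of the other transcription factors, *Tlx2*, which is expressed in enteric neurons, was lower by 1.31, at signals of 28.1 and 53.8. *Hand1*, the relative of *Hand2*, read 24.5 and 85.3, was lower by 0.45 and, like *Hand2*, was not well above background in either spinal cord.

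Of the nitric oxide genes, *Nos2*, the inducible synthase, was lower by 1.85 in the duodenum labelled KO, at signals of 18.4 and 24.2. Of the VIP genes, *Vipr2* was the one pathway gene at least 2-fold higher there, by 1.14, at signals of 20.4 and 213.5, and *Vipr1* differed by 0.41. Among the Elavl and Uchl relatives, the widely expressed *Elavl1* differed by 0.034, while the neuronal *Elavl2* was not well above background in either duodenum. *Uchl3* and *Uchl4* are close copies and their probes may share transcripts, so their values are uncertain.

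Markers of neurons and of other gut cell types were listed for comparison. Of 20 other neuronal genes, 13 were detected on both duodenum arrays and 9 of those were below 0, with a median difference of −0.63. With bounds counted, 1 of the 19 detected on at least 1 duodenum array was at least 2-fold higher and 2 at least 2-fold lower. Of all genes so detected, 7.2% and 11.9% were. The scaled linear signals of all 20, detected or not, summed to 33.998 on the WT array and 30.1 on the KO-labelled array. *Snap25*, a synaptic vesicle fusion protein, was lower by 0.78. The differences furthest from 0 were −1.54 for *Npy*, a transmitter peptide, and −1.30 for *Slc18a3*, the vesicular acetylcholine transporter. All 20 were detected in the spinal cord, with a median of −0.073 and none 2-fold apart.

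Of the 6 enteric glial genes detected on both duodenum arrays, 5 were lower on the KO-labelled array and 1 was higher, with a median of −0.54. With bounds counted, 2 of the 8 detected on at least 1 duodenum array were at least 2-fold higher and 2 at least 2-fold lower. Of all genes so detected, 7.2% and 11.9% were. The difference was −2.65 for *Erbb3*, a neuregulin receptor that epithelium also makes. It was −2.19 for *L1cam*, at WT and KO-labelled signals of only 14.0 and 14.6. The 1 higher gene detected on both arrays was *S100b*, by 1.72. *Gfap* was not well above background in either duodenum. The scaled signals of the list summed to 8.398 on the WT array and 5.403 on the KO-labelled array.

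Cell types other than neurons and glia also differed between the duodenum arrays. All 6 blood genes detected on both were at least 2-fold lower on the KO-labelled array, with a median of −3.39. Of all genes well above background on at least 1 duodenum array, 11.9% were at least 2-fold lower. The scaled signals of all 7 listed blood genes with a probe summed to 1532 on the WT array and 88.4 on the KO-labelled array. Smooth muscle, in which the myenteric plexus is embedded, had a median of −0.54 over 9 genes, with −1.55 for *Actg2* and −1.42 for *Des*. All 10 listed smooth muscle genes summed to 133 and 76.1. Pancreatic acinar genes had a median of −0.94 over 9 genes. Intestinal epithelial genes had a median of 0.059 over 10 genes, and interstitial cells of Cajal 0.63 over 5 genes, with *Ano1* higher by 0.84. The part of these cell types in the member differences was not tested.

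**Figure D5:**
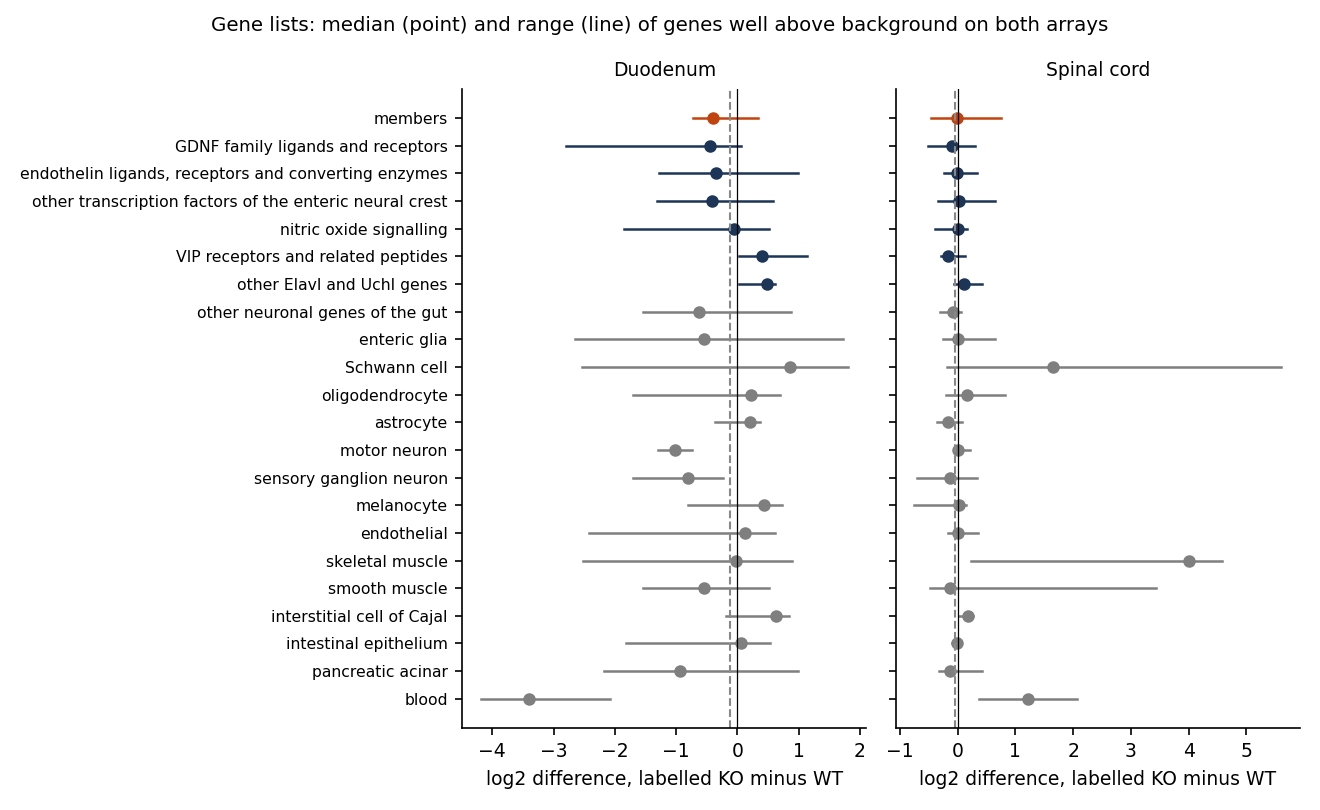
Median (point) and range (line) of the log2 difference, array labelled KO minus WT, over the genes of each list detected on both arrays, in the duodenum (left) and the spinal cord (right), with members in red, pathway lists in blue, other cell types in grey and the median of all genes as a dashed line. Blood has a median of −3.39 in the duodenum, and skeletal muscle and Schwann cell genes have medians of 4.02 and 1.66 in the spinal cord, while the members lie at −0.40 and −0.0018.

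As a description over 4 arrays that share organs and scaling, each member detected on every array was set against the 110 listed genes that were detected there too, by the distance between profiles after each gene's own mean was subtracted. For *Ret* the nearest were *Aldoc*, at 0.010, and *Penk*, at 0.31. *Elavl4* was nearest to *Mog*, at 0.10, and *Prph*, at 0.19, and *Vip* to *Pmel*, at 0.37, and *Aldh1l1*, at 0.54. *Uchl1* and *Sox10* were each other's nearest, at 0.55, followed in both cases by *Tubb3*, at 0.66 and 0.89.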

How the data were processed

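Total RNA from each organ was labelled with Cy3 and hybridized to 1-colour Agilent mouse arrays, 4 arrays on 1 slide. Per the labels, the authors used RNA with an integrity number over 7.0 and Agilent Feature Extraction 11.5.1.1. The deposited scanner files hold an intensity per spot, of which the processed signal (background-subtracted and detrended by the software) was used. The deposited series table holds log2 values. Set against the scanner files, these were log2 of the processed signal with values under 1 raised to 1, quantile normalized over the 4 arrays (median absolute difference 0.00104 on the spinal cord arrays), with column medians of 5.11 to 5.12, and 9 probes there differed by more than 0.1. Each column is 1 sample and not a ratio.

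Here control spots and flagged spots (89 to 133 of 43020 per array) were left out, spots of a probe were averaged, log2 was taken and the 75th percentile of each array subtracted (Python 3.11.15, numpy 2.4.6, pandas 2.3.3). No spot was saturated. Of 26391 probes listed under a RefSeq mRNA, 25868 matched a symbol. A gene was represented by its probe with the highest mean, and both probes of a member are given. A probe well above background on 1 of the arrays compared gives a bound against the lowest value well above background on the other, or its own value there if higher, and no fold where the bound is under 1. At least 2-fold stood for a call. The technical SD came from the 50 nearest in brightness of 399 probes spotted 10 times. The difference step was tested on simulated data. The alternatives tried were normexp on the spot and local background signals (offset 50, limma 3.58.1, R 4.3.3), the same with flagged local backgrounds replaced, quantile normalization over 4 arrays or within an organ, median centring, 8 spiked-in control probes, the deposited table, averaged probes, other filters and 1.5-fold.

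Genes named were the members, *Ip6k2*, each pathway gene at least 2-fold apart between genotypes, and of other lists the brightest gene and the pair furthest apart. Other genes named, including *Gdnf*, *Gfra1*, *Edn3*, *Hand1*, *Vipr1*, *Elavl1*, *Elavl2*, *S100b* and *Gfap*, were picked from the lists for their known roles after their values were seen. Members and lists were chosen with earlier results of these data known. *Mnx1*, *Amy2b* and *Ahsp*, from the lists, had no probe by name. Some genes that this rule or these lists hold are not reported here by name.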

Additional observations from a re-analysis of the deposited data

Results flagged for a closer look

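*Sox10* differed in opposite directions between the genotypes in the organs. It was higher by 0.76 on the spinal cord array labelled KO and lower by 0.62 on the duodenum array labelled KO, each by more than 2 technical SDs of spots, so the duodenum difference minus the spinal cord difference was −1.37 on the log2 scale. The difference was not tested, since each genotype and organ has 1 array. With scaling on spiked-in control probes the duodenum difference was 2.39, when the median gene there differed by 2.89.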

How the results depend on the processing

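Of the values for single genes, 105 moved by less than the spread between spots, 4 of them with a change of sign. A further 140 moved by more, 13 of them with a change of sign. Among these 13 were *Uchl1*, *Sox10*, *Elavl4* and *Hand2* in the duodenum. They turned from negative to 2.28, 2.39, 2.53 and 2.68 with spiked-in scaling. The other 3 values also changed sign and were *Vip* between organs. With quantile normalization within an organ they were −0.55 on the KO-labelled arrays and −1.08 in the WT mouse. With spiked-in scaling the value was −3.43 in the WT mouse. For the median of the members in the duodenum (−0.40, KO-labelled minus WT), normexp gave −0.87, normexp with flagged backgrounds replaced −0.87, averaged probes −0.21 and spiked-in scaling 2.60. In the spinal cord (−0.0018) normexp gave 0.22 and spiked-in scaling −0.17. Between organs in the WT mouse (−4.45), the values were −2.07 with normexp, −2.28 with flagged backgrounds replaced, −7.13 with quantiles within an organ, −4.22 with median centring, −9.48 with spiked-in scaling and −3.34 without a filter. On the KO-labelled arrays (−4.19) they were, in that order, −3.28, −3.28, −6.83, −3.91, −6.05 and −3.28, with −5.09 from the deposited table and −4.59 with averaged probes. The number of members at least 2-fold apart in the duodenum (0) was 1 with either normexp, 8 with spiked-in scaling, 1 without a filter and 3 at 1.5-fold. In the spinal cord (0) it was 3 with normexp, 1 without a filter and 1 at 1.5-fold. Between organs in the WT mouse (8) it was 5 with normexp and 5 with probes detected on both arrays only, since bounds are then dropped. The cause of the other moves was not tested. No paired analysis was possible because there was a single array for any genotype in an organ, and the slide could not be used as a block because all 4 arrays were on 1 slide. Signal over background limits *Nos1* and *Elavl3* in the duodenum, where no genotype difference can be given.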
